A study of Mus with 8 samples.

Results

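Chemokines and chemokine receptors were described in mouse uterus at pseudopregnancy day 6, in 4 control libraries and 4 libraries labelled as myometrial PGR deficiency. The genes were chosen by name: every symbol that starts with Ccl, Cxcl, Ccr or Cxcr followed by a digit, with 1 symbol left out of the set by its definition, and only rows with a count in at least 1 library. This gave 48 genes of 31269 symbols, made up of 32 ligands and 16 receptors. Cxcr1, a neutrophil receptor, matched the name but had 0 counts in all 8 libraries, which allows a level of up to 0.0410 to 0.0445 CPM per library (3 counts, counting error only). Relatives with other names, such as Cx3cl1 and the atypical receptors, are outside the set and are given as a separate list.

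RNA was sequenced from uterine tissue of pseudopregnant mice, a state that follows a sterile mating and in which progesterone dominates. The first group is labelled control, with no genotype beyond that word, and the second is labelled as lacking PGR, the receptor for progesterone, in the myometrium (the muscle wall). The sources used here give no allele, promoter or Cre driver for either group, nor the age or strain of the mice, and do not tie the libraries to separate animals. P-values therefore measure the spread between these libraries, which may be technical. The labels place the tissue at implantation sites, although a pseudopregnant uterus holds no embryo.

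Total counts ran from 70296369 to 72364750 per library. Pgr, the targeted gene, measured 131, 180.0, 144 and 171 CPM (counts scaled to each library's TMM-adjusted total) in control libraries 1 to 4 and 187, 184, 177 and 159.7 CPM in the other group, so the counts did not check the label (log2 difference 0.18 ± 0.11 SE, adjusted p = 0.338 in edgeR, two-sided exact permutation p = 0.2, where the smallest possible p is 0.0286). The counts come from bulk uterine tissue and the label names the myometrium alone, so they could not show whether Pgr was lost there. Since the label was not checked, the second group is called deficient-labelled, and every direction below rests on the label. The labelled tissue was checked on defining genes: the smooth muscle genes Myh11 and Acta2 measured at least 1410.4 and 790.4 CPM in every library, and the epithelial gene Epcam at least 138 CPM. Deficient-labelled library 2 stood apart from the other libraries, holding the highest value of 28.6% of all genes tested and the lowest of 28.1%.

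Chemokines are small secreted proteins that bind matrix sugars and set up gradients, and leukocytes follow these gradients through receptors coupled to inhibitory G proteins. CC and CXC ligands are named for the spacing of their first cysteines, and most receptors bind several ligands of their own class. In the uterus they are known for bringing macrophages, eosinophils and natural killer cells into the stroma, under the influence of ovarian steroids, and some, such as Ccl28 and Cxcl17, are made by mucosal epithelium. All values come from bulk tissue, in which fewer cells of a type and less RNA per cell cannot be told apart.

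Most of the chemokine and receptor genes had higher levels in the deficient-labelled libraries, but none passed the threshold of the main test. Of the 48 genes, 37 had enough counts to be tested, and 28 of these 37 had a positive log2 difference (deficient-labelled over control), against 52% of all 17629 genes tested. Their median log2 difference was 0.45, and that of all genes tested was 0.01. With no filter on low counts all 48 were fitted and 36 were positive. None of the 37 reached the filter level in 1 group alone. Ccl17, with a negative difference, reached it in 4 control libraries but in only 2 deficient-labelled libraries.

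By edgeR's quasi-likelihood test 0 genes of the 17629 and so 0 of the 37 had an adjusted p under 0.05 (0% of all genes; smallest adjusted p 0.0715), although 4372 genes had an unadjusted p under 0.05 and DESeq2 and limma-voom called 2488 and 2 genes. An unadjusted p under 0.05 was found for 13 of the 37, where 24.8% of all genes reached it. In the direction of higher levels there were 10 (13% of all genes) and in that of lower levels 3 (11.8% of all genes). In 5 of the 37 the groups did not overlap (16.3% of all genes), 3 of them higher in the deficient-labelled group (7.61% of all genes) and 2 lower (8.66% of all genes). The share that did not overlap was thus near that of all genes. DESeq2 called 6 of the 37 at an adjusted p under 0.05, among them Ccl28, Ccl27a, Ccl4, Ccr1l1 and Ccl11, where it called 14.1% of all genes. Of the 6, 5 were higher (7.41% of all genes) and Ccl27a was lower (6.7% of all genes). Limma-voom called 0 of them (0.0113% of all genes), with an unadjusted p under 0.05 for 11 (29.7%, beside 23.7% of all genes).

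Single libraries moved these counts, in the set and over all genes alike. Deficient-labelled library 2 held the highest value of 21 of the 37 genes, which is 56.8%, beside its 28.6% of all genes. The 13 genes at an unadjusted p under 0.05 (35.1% of the 37) became 6 without control library 4, which is 16.2% of the set and 16.2% of all genes tested. They became 7 without deficient-labelled library 2 (18.9%, beside 19% of all genes) and 6 without deficient-labelled libraries 2 and 3 (14.6%, beside 18.4% of all genes). In these fits the share of the set was thus no larger than that of all genes. It was larger on leaving out any other single library. There it ran from 23.7% beside 18.2% of all genes (without control library 1) to 40.5% beside 30.7% (without deficient-labelled library 4). With fewer libraries, groups lie apart more often for any gene. The 5 genes with groups that did not overlap (13.5% of the 37) became 9 without control library 2 (23.7%, beside 23.3% of all genes) and 9 without deficient-labelled library 1 (23.7%, beside 21.2%). They became 11 without deficient-labelled library 4 (29.7%, beside 27.7%) and 10 without deficient-labelled libraries 2 and 3 (24.4%, beside 29.8%).

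**Figure D1:**
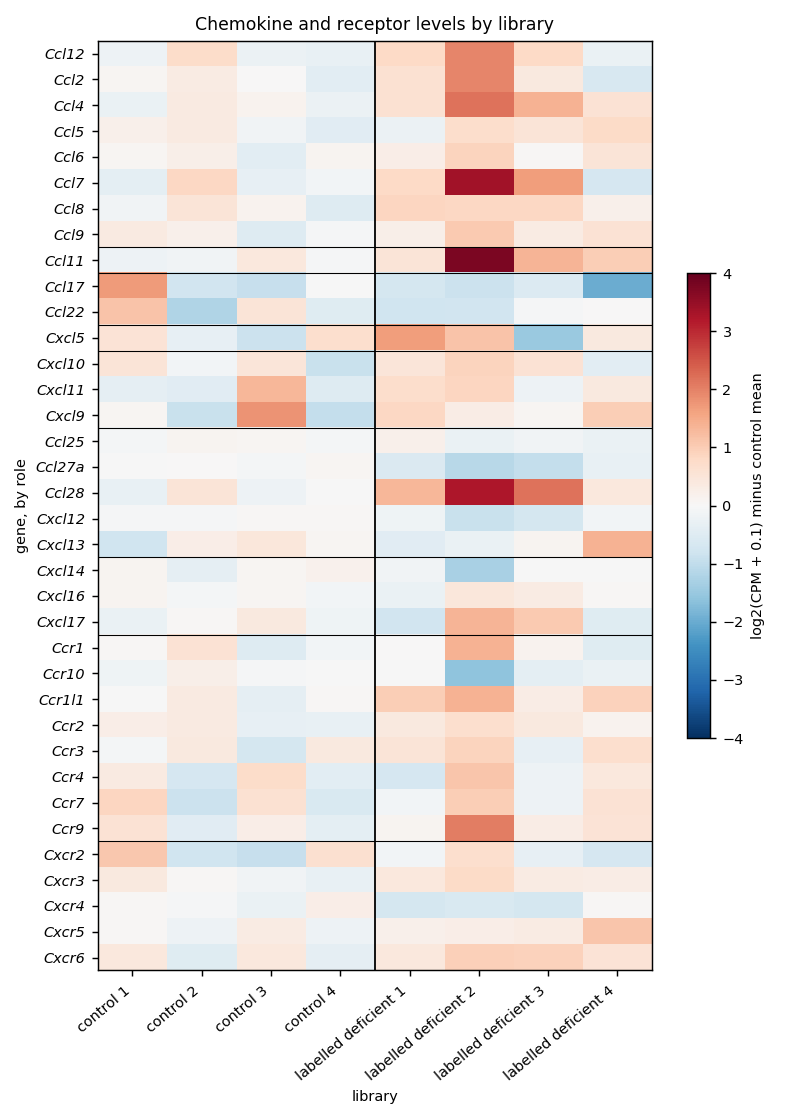
Level of 36 of the tested genes (rows, grouped by role with lines between the groups) in each of the 8 libraries (columns). Colour is log2(CPM + 0.1) minus the mean of the 4 controls; red is higher and blue lower, and the column of deficient-labelled library 2 holds the highest value of 20 of the 36 genes.

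**Figure D2:**
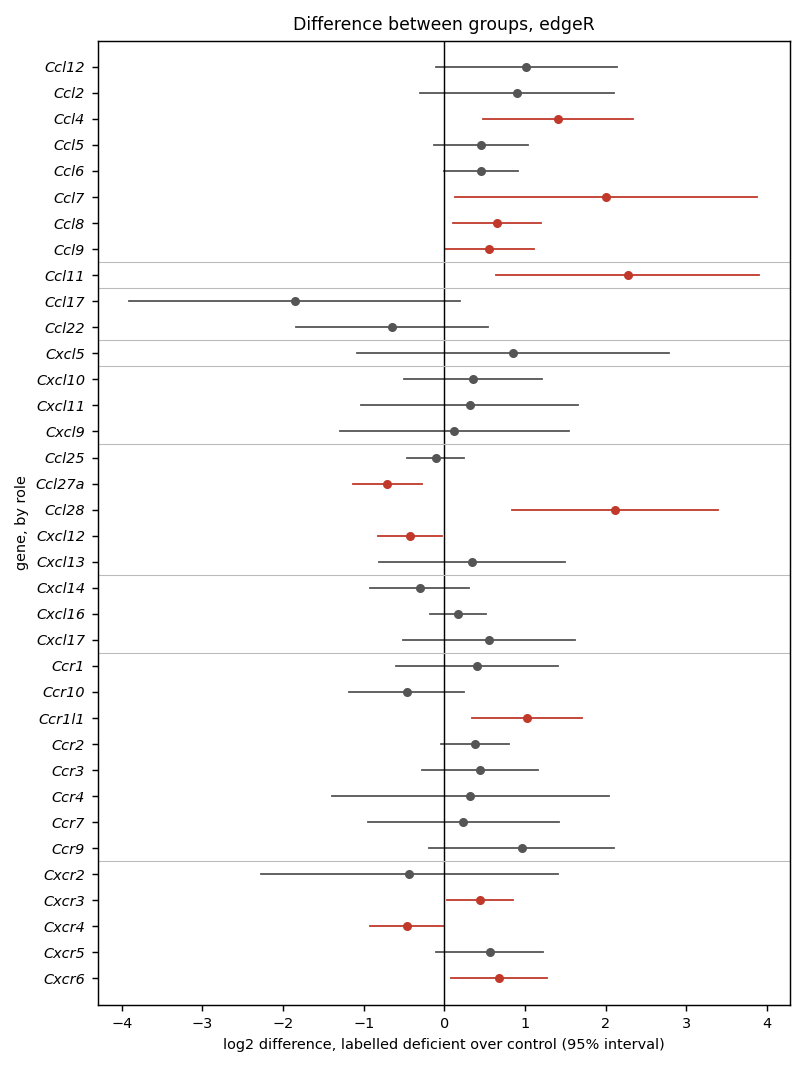
Log2 difference of 36 of the tested genes, deficient-labelled over control, with its 95% interval from edgeR, grouped by role. Red marks the 12 genes with an unadjusted p under 0.05, 9 to the right of 0 and 3 to the left; none has an adjusted p under 0.05.

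Among the CC ligands that draw monocytes and macrophages, all 8 that were tested had positive differences (52% of all genes). Their median was 0.78 on the log2 scale. Those at an unadjusted p under 0.05 were Ccl4, Ccl7, Ccl8 and Ccl9, all higher (13% of all genes). The ligands lie in neighbouring stretches of chromosome 11 (GRCm38.p6, the assembly that mm10 names). The stretch from 82035577 to 82179812 holds Ccl2, Ccl7, Ccl11, Ccl12, Ccl8 and Ccl1, of which 5 were tested. The stretch from 83525778 to 83664683 holds Ccl5, Ccl9, Ccl6, Ccl3 and Ccl4, of which 4 were tested. All 9 tested genes of both stretches had positive differences (52% of all genes), from 0.45 to 2.27. These are the same 8 ligands and Ccl11, so the count by location is not separate from the count by role.

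Ccl4 (chromosome 11 from 83648624 to 83664683) is a macrophage inflammatory protein released by activated macrophages, T cells and natural killer cells. It measured 0.675, 1.10, 0.931 and 0.691 CPM in control libraries 1 to 4 and 1.33, 4.06, 2.33 and 1.30 CPM in deficient-labelled libraries 1 to 4. All 4 deficient-labelled libraries lay above every control, with library 2 the highest and libraries 1 and 4 close to control library 2. The mean was 0.849 ± 0.204 CPM (controls) and 2.25 ± 1.30 CPM (deficient-labelled), with SD over n = 4 each, a 2.65-fold ratio (log2 difference 1.41 ± 0.41 (SE), 95% interval 0.47 to 2.34, adjusted p = 0.108). DESeq2 gave an adjusted p of 0.0157, and over all alternatives the adjusted p ran from 0.0157 to 0.295. Ccl3, its neighbour and close relative, had 11 counts in all 8 libraries together and was not tested. The gene spans of Ccl3 and Ccl4 overlap in the annotation, so reads could be split between them.

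Ccl7 (chromosome 11 from 82045712 to 82047525), a ligand of Ccr2 that draws monocytes, measured 0.689, 1.75, 0.739 and 0.874 CPM in control libraries 1 to 4 and 1.71, 10.7, 3.25 and 0.561 CPM in deficient-labelled libraries 1 to 4. Library 2 of the deficient-labelled group was far above the rest, while library 4 lay below every control, so the groups overlapped. The log2 difference was 2.00 ± 0.82 (SE), with a 95% interval of 0.13 to 3.87 and an adjusted p = 0.180. It was 0.86 without deficient-labelled library 2 and 0.17 without libraries 2 and 3. The other Ccr2 ligands were likewise highest in library 2. Ccl2 measured 1.18, 1.41, 1.12 and 0.804 CPM in control libraries 1 to 4 and 1.73, 4.55, 1.48 and 0.684 CPM in deficient-labelled libraries 1 to 4 (log2 difference 0.90 ± 0.52 SE, adjusted p = 0.314). Ccl12 measured 1.13, 2.26, 1.10 and 1.04 CPM in control libraries 1 to 4 and 2.36, 5.41, 2.36 and 1.07 CPM in deficient-labelled libraries 1 to 4 (log2 difference 1.02 ± 0.49 SE, adjusted p = 0.236). For Ccl12 deficient-labelled library 4 lay within the control range, and for Ccl2 it lay below it. Without library 2 their log2 differences were 0.20 and 0.48.

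Ccl8 (chromosome 11 from 82115185 to 82116799), which in mice binds Ccr8, had a different pattern. It measured 13.1, 20.6, 16.0 and 9.98 CPM in control libraries 1 to 4 and 26.3, 25.4, 25.8 and 16.6 CPM in deficient-labelled libraries 1 to 4. Libraries 1, 2 and 3 of the deficient-labelled group were alike and above every control, and library 4 lay inside the control range. The mean was 14.9 ± 4.50 CPM (controls) and 23.5 ± 4.61 CPM (deficient-labelled), with SD over n = 4 each (log2 difference 0.66 ± 0.24 (SE), 95% interval 0.11 to 1.20, adjusted p = 0.150). This difference depended little on library 2, at 0.62 without it.

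Ccl9 (chromosome 11 from 83572917 to 83578636), a ligand of Ccr1, measured 14.9, 13.5, 8.13 and 11.2 CPM in control libraries 1 to 4 and 13.7, 24.3, 14.6 and 17.5 CPM in deficient-labelled libraries 1 to 4. The groups overlapped, since deficient-labelled libraries 1 and 3 lay within the control range, and the difference was 0.56 ± 0.24 (SE; adjusted p = 0.197). Ccl6, another Ccr1 ligand made by myeloid cells, measured 61.7, 68.1, 42.9 and 62.4 CPM in control libraries 1 to 4 and 70.3, 107, 60.2 and 83.6 CPM in deficient-labelled libraries 1 to 4, with the same library on top (log2 difference 0.45 ± 0.20 SE, adjusted p = 0.208). Ccl5 (RANTES), made by T cells and natural killer cells and bound by Ccr1 and Ccr3 among others, measured 18.2, 20.4, 14.2 and 11.6 CPM in control libraries 1 to 4 and 13.2, 25.6, 22.6 and 26.5 CPM in deficient-labelled libraries 1 to 4. Deficient-labelled libraries 2, 3 and 4 exceeded all controls, library 1 did not, and the difference was 0.45 ± 0.25 (SE; adjusted p = 0.295).

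Ccl11 (eotaxin, chromosome 11 from 82057832 to 82062955), the ligand that draws eosinophils through Ccr3, had the largest positive log2 difference of the tested chemokine and receptor genes. It measured 8.97, 9.47, 13.8 and 9.97 CPM in control libraries 1 to 4 and 15.1, 141, 27.1 and 20.6 CPM in deficient-labelled libraries 1 to 4. The groups did not overlap, but deficient-labelled library 1 was only just above control library 3, and library 2 was far above libraries 1, 3 and 4 of its own group. The mean was 10.6 ± 2.22 CPM (controls) and 51.1 ± 60.5 CPM (deficient-labelled), with SD over n = 4 each, a 4.83-fold ratio (95% interval of the ratio 1.56 to 14.9; log2 difference 2.27 ± 0.71 (SE), 95% interval 0.65 to 3.90, adjusted p = 0.120). Without library 2 the log2 difference was 0.99, and without libraries 2 and 3 it was 0.76. DESeq2 gave an adjusted p of 0.0243, in a range of 0.0243 to 0.282 over all alternatives.

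Ccr3, the receptor for Ccl11 on eosinophils, measured 16.2, 22.5, 10.6 and 22.9 CPM in control libraries 1 to 4 and 24.9, 32.3, 13.6 and 27.5 CPM in deficient-labelled libraries 1 to 4. Its groups overlapped, and the difference was 0.45 ± 0.31 (SE; adjusted p = 0.398). The other eosinophil-attracting ligands were barely counted: Ccl24 had 71 counts in all and Ccl26 had 1. Eosinophil markers, of which 6 of 7 listed genes were in the table, summed to 5.35, 7.01, 4.53 and 10.99 CPM in the controls and 6.57, 16.1, 3.86 and 8.33 CPM in the deficient-labelled libraries. Of these, Ear6 had 0 counts and Ear1 had a count in control library 1 alone, and the sum consisted mostly of Il5ra and Prg2. Library 2, the highest for Ccl11, was also the highest for that sum, through Il5ra (14.99 CPM), while the eosinophil granule gene Prg2 was at 0.994 CPM there. Whether eosinophil number had a part in the Ccl11 and Ccr3 values was not tested.

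**Figure D3:**
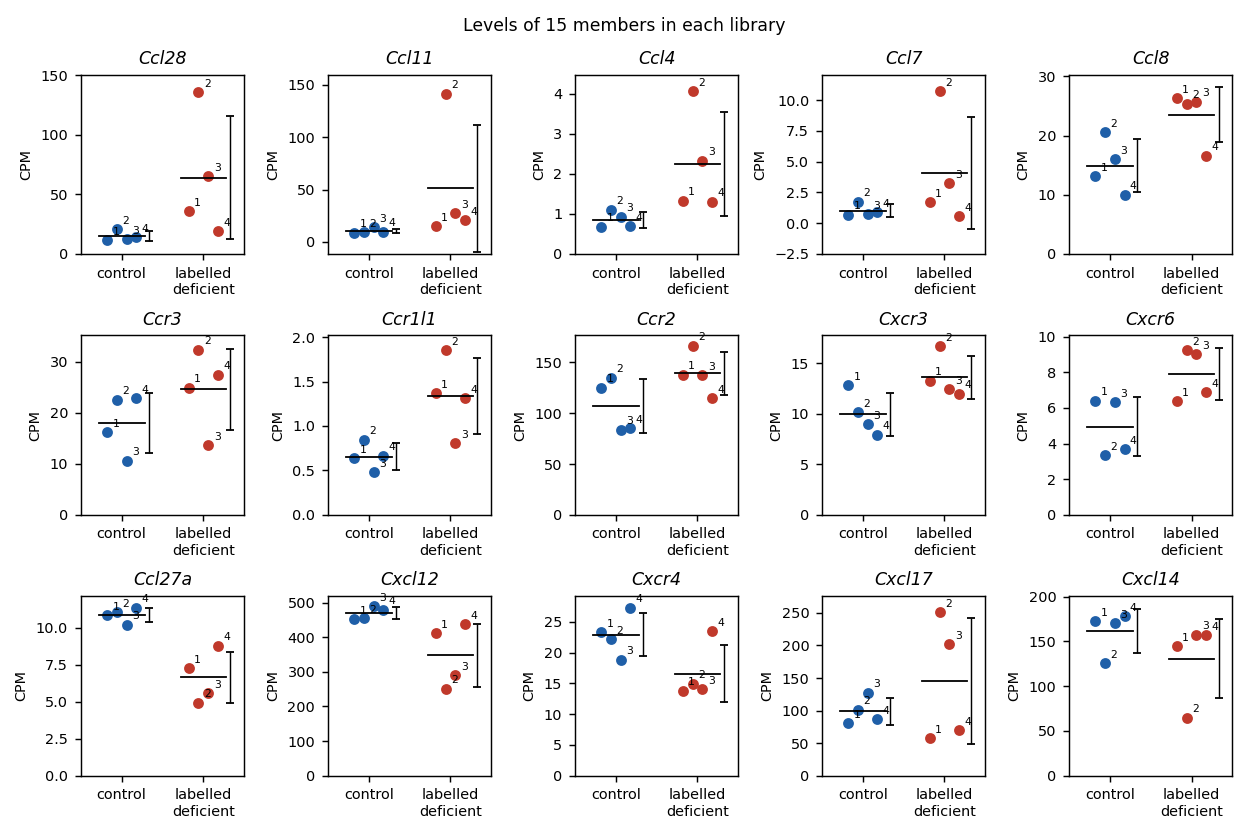
CPM of 15 genes in each library (points, numbered by library), with the group mean (line) and SD (bar at the right of each group, n = 4). Ccl11 and Ccl28 reach 141 and 136 CPM in deficient-labelled library 2, and for Ccl27a and Cxcl12 every deficient-labelled library lies below every control.

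Among the homeostatic ligands, which are made steadily by stroma or epithelium, the differences went both ways. Of 6 such genes 5 were tested, 2 with positive and 3 with negative differences. At an unadjusted p under 0.05 Ccl28 was higher (13% of all genes) and Ccl27a and Cxcl12 were lower (11.8% of all genes).

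Ccl28 (chromosome 13 from 119623819 to 119654359) is the mucosal epithelial chemokine that draws plasma cells and T cells carrying Ccr10. It measured 11.8, 20.7, 12.3 and 14.2 CPM in control libraries 1 to 4 and 35.9, 136, 65.6 and 19.2 CPM in deficient-labelled libraries 1 to 4. Libraries 1, 2 and 3 of the deficient-labelled group were above every control, with library 2 the highest, and library 4 lay inside the control range. The mean was 14.8 ± 4.12 CPM (controls) and 64.1 ± 51.5 CPM (deficient-labelled), with SD over n = 4 each, a 4.34-fold ratio (95% interval of the ratio 1.80 to 10.5; log2 difference 2.12 ± 0.56 (SE), 95% interval 0.84 to 3.39, adjusted p = 0.101). DESeq2 gave an adjusted p of 0.00145, the smallest of the 37 with that tool, and the range over all alternatives was 0.00145 to 0.260. Without library 2 the log2 difference was 1.45, and without libraries 2 and 3 it was 0.90.

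Uterine epithelial markers were highest in some of the same libraries as Ccl28. All 10 listed genes were tested, and they summed to 1566, 1504, 1544 and 1361 CPM in the controls and 1417, 3148, 2316 and 1469 CPM in the deficient-labelled libraries. No epithelial marker was at 0. The sum was highest in deficient-labelled libraries 2 and 3, as Ccl28 was, while library 1 lay inside the control range for the sum and above it for Ccl28. The part of epithelial content in the Ccl28 result was not tested.

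Ccl27a (chromosome 4 from 41769467 to 41774225), an epithelial chemokine that also binds Ccr10, lay in the opposite direction. It measured 10.8, 11.02, 10.2 and 11.3 CPM in control libraries 1 to 4 and 7.27, 4.94, 5.56 and 8.77 CPM in deficient-labelled libraries 1 to 4. Every deficient-labelled library was below every control, libraries 2 and 3 the furthest. The mean was 10.8 ± 0.487 CPM (controls) and 6.64 ± 1.73 CPM (deficient-labelled), with SD over n = 4 each (log2 difference -0.71 ± 0.19 (SE), 95% interval -1.13 to -0.28, adjusted p = 0.101). The difference was -0.58 without library 2 and -0.43 without libraries 2 and 3, and DESeq2 gave an adjusted p of 0.00691, in a range of 0.00691 to 0.260 over all alternatives. Ccl27a overlaps Il11ra1, a cytokine receptor gene, whose own difference was 0.18 ± 0.09 (SE; adjusted p = 0.259). Reads of the overlap, and of near-identical copies of this locus, could be split by the counting, so the Ccl27a level is uncertain.

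Ccr10, the receptor that Ccl27a and Ccl28 share, measured 7.34, 9.59, 7.88 and 8.16 CPM in control libraries 1 to 4 and 8.13, 2.61, 6.26 and 6.85 CPM in deficient-labelled libraries 1 to 4. Library 2 was the lowest by far and the other deficient-labelled libraries were close to the controls (log2 difference -0.47 ± 0.31 SE, adjusted p = 0.372; -0.21 without library 2). Library 2 was thus the highest for Ccl28 and the lowest for both Ccl27a and Ccr10. Ccr10 overlaps Cntnap1, which was also at its lowest in library 2, at 44.8 CPM against 76.7 to 102 CPM in the controls, so their reads may not be separable.

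Cxcl12 (chromosome 6 from 117168535 to 117181368), the stromal ligand that retains cells carrying Cxcr4, measured 453, 455, 489.6 and 479 CPM in control libraries 1 to 4 and 412, 252, 291 and 438 CPM in deficient-labelled libraries 1 to 4. Every deficient-labelled library lay below every control. Libraries 1 and 4 were close to the control range and libraries 2 and 3 well under it. The mean was 469 ± 18.2 CPM (controls) and 348 ± 90.9 CPM (deficient-labelled), with SD over n = 4 each, a ratio of 0.742 (log2 difference -0.43 ± 0.17 (SE), 95% interval -0.83 to -0.04, adjusted p = 0.175). Without libraries 2 and 3 the log2 difference was -0.14.

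Cxcr4 (chromosome 1 from 128588199 to 128592299), the signalling receptor for Cxcl12, was lower as well. It measured 23.3, 22.2, 18.8 and 27.3 CPM in control libraries 1 to 4 and 13.8, 14.9, 14.1 and 23.5 CPM in deficient-labelled libraries 1 to 4. Deficient-labelled libraries 1, 2 and 3 lay below every control, and library 4 lay within the control range (log2 difference -0.47 ± 0.20 SE, adjusted p = 0.192). Ackr3, the atypical receptor that takes up Cxcl12 without coupling to G proteins, had a difference in the other direction. It measured 55.7, 41.9, 46.3 and 42.3 CPM in control libraries 1 to 4 and 39.5, 91.5, 81.4 and 63.3 CPM in deficient-labelled libraries 1 to 4 (log2 difference 0.57 ± 0.24 SE, adjusted p = 0.191), with library 1 below every control and libraries 2, 3 and 4 above them. Dpp4, the peptidase that trims and inactivates Cxcl12 and other chemokines, measured 127, 99.4, 105 and 122 CPM in control libraries 1 to 4 and 36.1, 42.5, 82.8 and 72.7 CPM in deficient-labelled libraries 1 to 4. All 4 deficient-labelled libraries were below all controls for Dpp4, with a difference of -0.96 ± 0.26 (SE; adjusted p = 0.104).

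Blood endothelial markers (6 of 6 tested) summed to 1037, 861, 943 and 873 CPM in the controls and 1147, 572, 671 and 1014 CPM in the deficient-labelled libraries. The sum was at its lowest in libraries 2 and 3, the same libraries in which Cxcl12 was lowest. Stromal fibroblast markers (7 of 7 tested) summed to 5868 to 7349 CPM in the controls and 7386 to 8749 CPM in the other group. Though the stromal sums did not overlap, 3 of these markers had positive and 4 negative differences, with a median log2 difference of -0.05. Smooth muscle markers (8 of 8 tested) summed to 4223 to 6318 and 4176 to 4880.3 CPM. All 8 had negative differences (52% of all genes were positive), 2 of them at an unadjusted p under 0.05 (11.8% of all genes). None of the blood endothelial, stromal and smooth muscle markers was at 0, and their part in the Cxcl12 values was not tested.

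Ccl25, a gut and thymus ligand for Ccr9, measured 3.82, 4.30, 4.23 and 3.78 CPM in control libraries 1 to 4 and 4.63, 3.34, 3.63 and 3.35 CPM in deficient-labelled libraries 1 to 4, with overlapping groups (log2 difference -0.11 ± 0.16 SE, 95% interval -0.47 to 0.25, adjusted p = 0.681). Ccr9 measured 1.93, 0.903, 1.53 and 0.945 CPM in control libraries 1 to 4 and 1.37, 5.49, 1.57 and 1.89 CPM in deficient-labelled libraries 1 to 4, where library 2 stood alone above the others (log2 difference 0.96 ± 0.50 SE, adjusted p = 0.266; 0.28 without library 2). Cxcl13, the B cell ligand of Cxcr5, measured 0.468, 1.09, 1.27 and 0.959 CPM in control libraries 1 to 4 and 0.622, 0.727, 0.965 and 2.49 CPM in deficient-labelled libraries 1 to 4 (log2 difference 0.34 ± 0.50 SE, adjusted p = 0.688). Its receptor Cxcr5 measured 0.840, 0.677, 1.04 and 0.691 CPM in control libraries 1 to 4 and 0.940, 0.979, 1.02 and 1.86 CPM in deficient-labelled libraries 1 to 4 (log2 difference 0.56 ± 0.29 SE, adjusted p = 0.259). Deficient-labelled library 4 was the highest for both the ligand and the receptor. Without that library the Cxcl13 difference was -0.30 and that of Cxcr5 0.27. B cell and plasma cell markers, 5 tested of 6 in the table, summed to 6.78, 7.87, 5.41 and 7.81 CPM in the controls and 7.38, 9.88, 12.7 and 16.7 CPM in the deficient-labelled libraries, also highest in library 4. Cxcr5 overlaps Bcl9l, which had a difference of 0.37 ± 0.10 (SE; adjusted p = 0.108). Ccl19, a ligand of Ccr7 made in lymph nodes, had 18 counts in all 8 libraries, 10 of them in deficient-labelled library 4, and was not tested.

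The remaining CXC ligands are expressed by epithelium, stroma or macrophages. Cxcl17, a mucosal ligand, measured 80.5, 101, 128 and 87.2 CPM in control libraries 1 to 4 and 57.5, 251, 202 and 69.8 CPM in deficient-labelled libraries 1 to 4. The deficient-labelled group was split, with libraries 2 and 3 above all controls and libraries 1 and 4 below them. Its difference was 0.55 ± 0.46 (SE; adjusted p = 0.477), and it changed sign to -0.63 without libraries 2 and 3. These were also the libraries with the highest epithelial marker sums.

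Cxcl14, a ligand made by stroma and epithelium, measured 172, 126, 170.2 and 179 CPM in control libraries 1 to 4 and 144, 64.7, 157 and 157 CPM in deficient-labelled libraries 1 to 4. Library 2 was the lowest, and the other 3 deficient-labelled libraries lay within the control range (log2 difference -0.30 ± 0.27 SE, adjusted p = 0.498; -0.08 without library 2). Cxcl16, the membrane-bound ligand of Cxcr6, measured 49.6, 43.7, 48.2 and 42.0 CPM in control libraries 1 to 4 and 38.1, 63.0, 57.7 and 47.7 CPM in deficient-labelled libraries 1 to 4, with overlapping groups and a difference of 0.17 ± 0.15 (SE; adjusted p = 0.495). Without libraries 2 and 3 the Cxcl16 difference was -0.09.

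The interferon-induced ligands of Cxcr3, which draw activated T cells and natural killer cells, had overlapping groups and intervals that include 0. All 3 lie within chromosome 5 from 92321331 to 92363296. Cxcl9 measured 4.88, 2.44, 16.3 and 2.36 CPM in control libraries 1 to 4 and 8.42, 5.68, 4.89 and 9.25 CPM in deficient-labelled libraries 1 to 4, and control library 3 held the highest value (log2 difference 0.12 ± 0.62 SE, 95% interval -1.30 to 1.54, adjusted p = 0.916). Its sign turned on leaving out single libraries, to -0.16 without control library 4, and the highest value was 1.12 without control library 3. Cxcl10 measured 7.30, 4.64, 7.08 and 2.65 CPM in control libraries 1 to 4 and 7.06, 9.34, 7.62 and 3.76 CPM in deficient-labelled libraries 1 to 4 (log2 difference 0.36 ± 0.37 SE, 95% interval -0.50 to 1.21, adjusted p = 0.566). Cxcl11 was below 1 CPM in every library and also highest in control library 3 (log2 difference 0.31 ± 0.59 SE). Cxcl10 and Cxcl11 overlap Art3, whose reads may not be separable from theirs.

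Cxcr3 itself (chromosome X from 101731535 to 101734147), the receptor for these ligands, measured 12.9, 10.2, 8.95 and 7.93 CPM in control libraries 1 to 4 and 13.3, 16.7, 12.5 and 11.98 CPM in deficient-labelled libraries 1 to 4. Deficient-labelled libraries 3 and 4 lay below control library 1, so the groups overlapped (log2 difference 0.45 ± 0.18 SE, 95% interval 0.04 to 0.86, adjusted p = 0.174). Ifng, the interferon that induces Cxcl9, measured 0.289, 0.254, 0.424 and 0.0987 CPM in control libraries 1 to 4 and 0.954, 1.14, 0.596 and 0.561 CPM in deficient-labelled libraries 1 to 4, with every deficient-labelled library above every control (log2 difference 1.60 ± 0.44 SE, adjusted p = 0.104). Ifng was thus higher in all 4 deficient-labelled libraries, but its counts were low, with control library 4 under the filter level of about 0.140 CPM. Cxcl9 was highest in control library 3 (16.3 CPM). In every deficient-labelled library Cxcl9 was above control libraries 1, 2 and 4.

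Cxcr6 (chromosome 9 from 123806477 to 123811754), a receptor of tissue-resident T cells and natural killer cells, measured 6.41, 3.36, 6.31 and 3.67 CPM in control libraries 1 to 4 and 6.39, 9.24, 9.02 and 6.90 CPM in deficient-labelled libraries 1 to 4. Control library 1 was as high as deficient-labelled library 1, and libraries 2, 3 and 4 of the latter group exceeded all controls (log2 difference 0.68 ± 0.26 SE, adjusted p = 0.165). The gene lies within Fyco1, whose difference was -0.06 ± 0.08 (SE). Natural killer cell markers (8 of 8 tested) summed to 197, 215, 136 and 129.5 CPM in the controls and 271, 389, 223 and 190.5 CPM in the deficient-labelled libraries. T cell markers (8 tested of 8 in the table) summed to 30.1, 15.5, 29.6 and 13.2 and 36.4, 35.4, 27.6 and 39.2 CPM. None of these markers was at 0. Both sums overlapped between the groups and all 16 markers had positive differences (52% of all genes). The part of these cells in the Cxcr3 and Cxcr6 values was not tested.

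Among CC receptors 9 of 11 were tested, of which 8 had positive differences (52% of all genes). The median was 0.40 on the log2 scale. A stretch of chromosome 9 from 123767211 to 124109140 holds Ccr9, Cxcr6, Ccr1, Ccr1l1, Ccr3 and Ccr2. All 6 were tested and all had positive differences (52% of all genes), from 0.38 to 1.03. Apart from Cxcr6 they are among the CC receptors just counted, so this count is not separate. An unadjusted p under 0.05 was found for 2, both higher (13% of all genes).

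Ccr2 (chromosome 9 from 124101918 to 124109140), the receptor that brings monocytes out of blood, measured 125, 135, 83.9 and 85.3 CPM in control libraries 1 to 4 and 138, 166, 138 and 115 CPM in deficient-labelled libraries 1 to 4. Control libraries 1 and 2 lay above deficient-labelled library 4, so the groups overlapped, and control libraries 3 and 4 were the lowest (log2 difference 0.38 ± 0.18 SE, 95% interval -0.05 to 0.80, adjusted p = 0.242). Ccr1, a myeloid receptor for Ccl5, Ccl6, Ccl7 and Ccl9, measured 3.11, 4.64, 2.09 and 2.82 CPM in control libraries 1 to 4 and 3.07, 8.19, 3.39 and 2.13 CPM in deficient-labelled libraries 1 to 4, with library 2 alone above the controls. Its difference was 0.40 ± 0.44 (SE; adjusted p = 0.580) and changed sign without that library, to -0.14. Ccr1l1 (chromosome 9 from 123976430 to 123986715), a close relative of Ccr1 beside it on the chromosome, measured 0.634, 0.847, 0.479 and 0.663 CPM in control libraries 1 to 4 and 1.37, 1.85, 0.809 and 1.31 CPM in deficient-labelled libraries 1 to 4. Library 3 of the deficient-labelled group lay just below control library 2 and the other 3 were above all controls (log2 difference 1.03 ± 0.30 SE, adjusted p = 0.108). Without library 2 it was 0.83. DESeq2 gave Ccr1l1 an adjusted p of 0.0236, in a range of 0.0236 to 0.265 over all alternatives. Reads shared by Ccr1 and Ccr1l1 could be split by the counting.

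Macrophage and monocyte markers had mostly positive differences as well. Of 14 listed genes 13 were tested, 11 with positive differences (52% of all genes) and 8 at an unadjusted p under 0.05, all higher (13% of all genes). The sums were 926, 954, 1159 and 914 CPM in the controls and 1107, 1699, 1519.7 and 1189.6 CPM in the deficient-labelled libraries, highest in libraries 2 and 3, and no marker was at 0. Mrc1, the mannose receptor of tissue macrophages, measured 38.7, 59.7, 51.6 and 46.9 CPM in control libraries 1 to 4 and 77.7, 133, 120.4 and 69.95 CPM in deficient-labelled libraries 1 to 4, without overlap (log2 difference 1.03 ± 0.23 SE, adjusted p = 0.0906). Csf1r, the receptor that macrophages need to survive, measured 121, 145, 153 and 124 CPM in control libraries 1 to 4 and 156, 156, 210.1 and 175 CPM in deficient-labelled libraries 1 to 4 (log2 difference 0.36 ± 0.12 SE). The part of macrophage content in the differences of Ccr2 and the monocyte-attracting ligands was not tested.

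**Figure D4:**
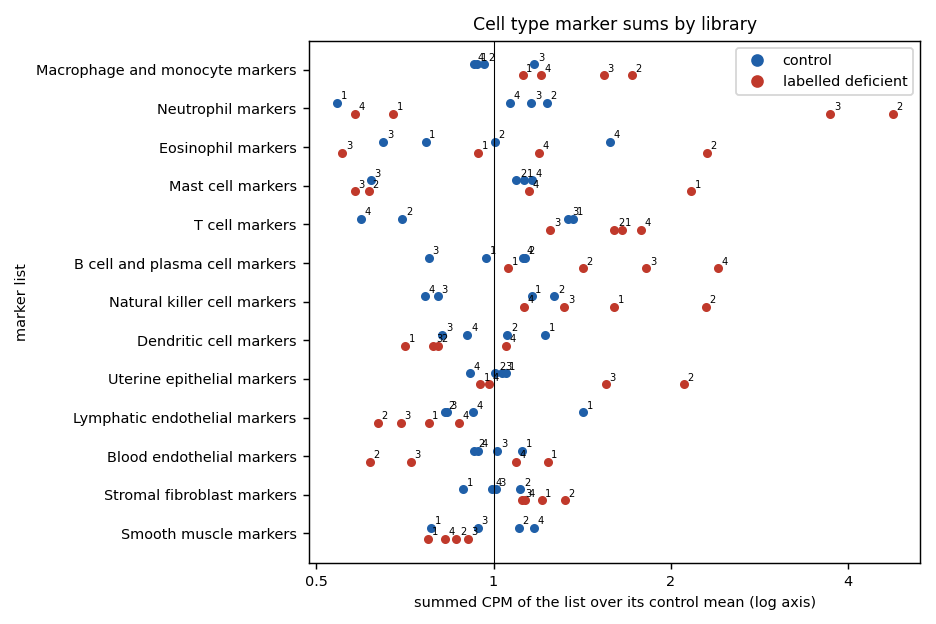
Summed CPM of each cell type marker list in each library, divided by the mean sum of the 4 controls (log axis; points numbered by library, blue control, red labelled deficient). Deficient-labelled libraries 2 and 3 lie to the right for the macrophage, neutrophil and epithelial lists and to the left for the blood endothelial list. The neutrophil sum consists mostly of Ltf. The mast cell sum consists mostly of Kit in every library but control library 4, so its points do not follow the other mast cell markers.

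Ligands that draw neutrophils were at the limit of detection. Cxcl1, Cxcl2 and Cxcl3 had 53, 12 and 14 counts in all 8 libraries together and were not tested, although 23 of the 53 Cxcl1 counts and 8 of the 14 Cxcl3 counts came from deficient-labelled library 2. Cxcl5 measured 0.427, 0.183, 0.0958 and 0.465 CPM in control libraries 1 to 4 and 1.04, 0.682, 0.0284 and 0.369 CPM in deficient-labelled libraries 1 to 4, spread widely in both groups (log2 difference 0.85 ± 0.84 SE, 95% interval -1.08 to 2.78). Their receptor Cxcr2 measured 0.468, 0.0564, 0.0411 and 0.324 CPM in control libraries 1 to 4 and 0.152, 0.326, 0.113 and 0.0684 CPM in deficient-labelled libraries 1 to 4 (log2 difference -0.43 ± 0.80 SE, 95% interval -2.27 to 1.40). Neutrophil markers, 9 in the table and 6 tested, had the highest sums in deficient-labelled libraries 2 and 3 (319, 2252, 1765 and 275 CPM in libraries 1 to 4, against 257 to 583 CPM in the controls). Ltf, which uterine epithelium makes as well, accounted for most of that sum. Without Ltf the neutrophil markers summed to 61.4, 66.3, 42.8 and 65.2 CPM in control libraries 1 to 4. In deficient-labelled libraries 1 to 4 they summed to 68.7, 82.6, 49.5 and 76.3 CPM, with library 3 inside the control range. Among them S100a8 and S100a9 were below 2 CPM in every library.

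Ligands tied to type 2 and regulatory T cell responses had negative differences in both tested members. Ccl22, made by macrophages and dendritic cells for Ccr4, measured 4.15, 0.734, 2.66 and 1.28 CPM in control libraries 1 to 4 and 0.995, 1.02, 1.77 and 1.85 CPM in deficient-labelled libraries 1 to 4 (log2 difference -0.64 ± 0.52 SE, adjusted p = 0.458). Ccl17, the neighbouring gene on chromosome 8 that shares Ccr4, measured 1.36, 0.169, 0.137 and 0.353 CPM in control libraries 1 to 4 and 0.180, 0.148, 0.213 and 0.0137 CPM in deficient-labelled libraries 1 to 4 (log2 difference -1.86 ± 0.89 SE, 95% interval -3.91 to 0.19, adjusted p = 0.235). Control library 1 was the highest for both, and the controls spread more widely than the deficient-labelled libraries. Dendritic cell markers (8 of 8 tested, Ccr7 among them, none at 0) summed to 121, 104, 80.7 and 89.0 CPM in the controls, also highest in library 1, and 69.7, 79.3, 77.8 and 103 CPM in the other group. Their receptor Ccr4 had 93 counts in all and a difference of 0.32 ± 0.75 (SE), which turned to -0.32 without deficient-labelled library 2. Ccr7, which guides mature dendritic cells to lymph nodes, measured 1.27, 0.310, 1.04 and 0.395 CPM in control libraries 1 to 4 and 0.594, 1.39, 0.553 and 1.01 CPM in deficient-labelled libraries 1 to 4 (log2 difference 0.24 ± 0.52 SE). Ccl20, for Ccr6 on T cells, was not tested and had 85 of its 97 counts in the controls, 35 and 41 of them in control libraries 1 and 4. Ccl1, Ccr6 and Ccr8 had 29, 57 and 52 counts in all and were not tested.

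Receptors were set beside ligands from a fixed list of pairs, which does not hold every ligand of a receptor. The listed ligands did not always lie on the same side of 0 as their receptor. For Ccr1, Ccr2, Ccr3, Cxcr3, Cxcr5 and Cxcr6 every listed ligand that was tested and the receptor had positive differences. For Cxcr4 both were negative. For Ccr10 the ligands were at 2.12 (Ccl28) and -0.71 (Ccl27a) and the receptor at -0.47. For Ccr4, Ccr9 and Cxcr2 the receptor and its tested ligands had opposite signs. Most of these values have intervals that include 0, and the signs of Ccr1, Ccr4, Cxcl9, Cxcl13, Cxcl16 and Cxcr2 turned on leaving out libraries, so they are a description, and ligand and receptor were measured in the same libraries.

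**Figure D5:**
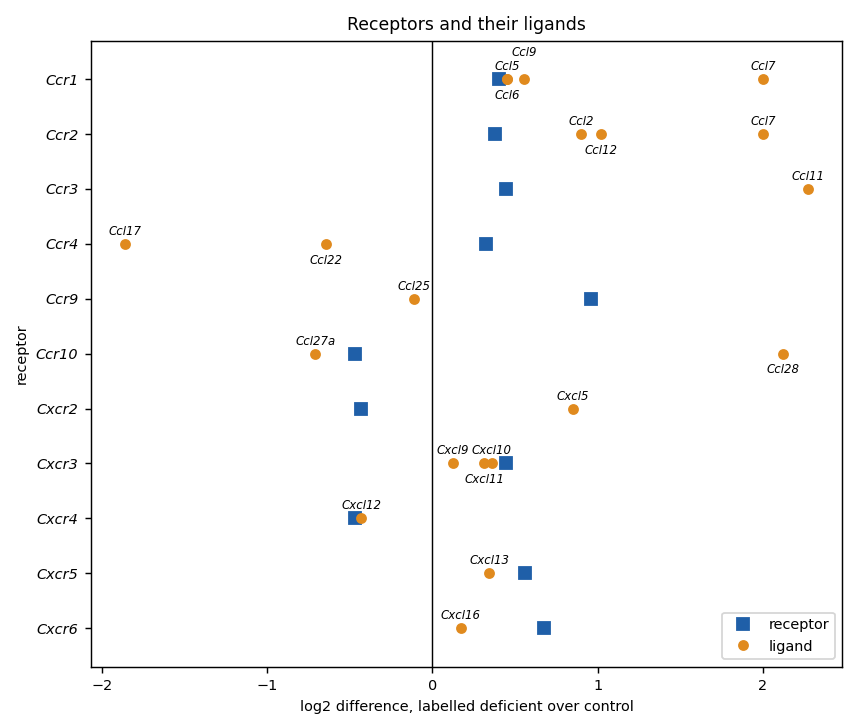
Log2 difference (deficient-labelled over control) of 11 receptors (squares) and of tested ligands set beside each from a fixed list (circles). The list does not hold every ligand of a receptor. Ccl28 and Ccl27a lie on opposite sides of 0 for Ccr10, and the Ccr4 ligands lie to the left of 0.

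Relatives of the family that carry other names were counted as a list of their own. Of 11 listed 9 were tested, 6 with positive and 3 with negative differences, and 4 had an unadjusted p under 0.05 (24.8% of all genes). Ackr2, the decoy receptor that removes inflammatory CC ligands, measured 2.11, 2.27, 2.64 and 1.86 CPM in control libraries 1 to 4 and 2.88, 3.72, 6.80 and 3.78 CPM in deficient-labelled libraries 1 to 4, without overlap (log2 difference 0.95 ± 0.28 SE, adjusted p = 0.111). Ccrl2, a non-signalling receptor of activated leukocytes and endothelium, was lower in every deficient-labelled library, at 10.2, 9.24, 11.6 and 9.998 CPM in control libraries 1 to 4 and 6.95, 6.01, 7.69 and 8.10 CPM in deficient-labelled libraries 1 to 4 (log2 difference -0.51 ± 0.13 SE, adjusted p = 0.101). Cx3cr1, the fractalkine receptor of monocytes and macrophages, measured 36.6, 48.0, 63.3 and 36.4 CPM in control libraries 1 to 4 and 61.8, 67.5, 86.8 and 51.5 CPM in deficient-labelled libraries 1 to 4 (log2 difference 0.54 ± 0.22 SE, adjusted p = 0.177), and its ligand Cx3cl1 had a difference of 0.41 ± 0.32 (SE; adjusted p = 0.454). Pf4, a platelet and macrophage CXC ligand, was at 0.62 ± 0.30 (SE; adjusted p = 0.234).

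Genes that carry the signal of chemokine receptors inside the cell had mostly positive differences in this bulk tissue. Of 22 tested genes of chemokine receptor signalling 16 had positive differences (52% of all genes). An unadjusted p under 0.05 was found for 10 (24.8% of all genes), of which 9 were higher (13% of all genes) and 1 lower (11.8% of all genes). The groups did not overlap in 6 that were higher (7.61% of all genes) and 1 that was lower (8.66% of all genes). Vav1, an exchange factor for Rac, was at 0.61 ± 0.13 (SE; adjusted p = 0.0906), and Elmo1 and Dock2, which work together to activate Rac in migrating leukocytes, were at 0.45 ± 0.12 (adjusted p = 0.102) and 0.57 ± 0.16 (adjusted p = 0.108). Pik3cg, the kinase switched on by chemokine receptors, was at 0.98 ± 0.28 (adjusted p = 0.107). Rgs1, which damps chemokine receptor signalling in lymphocytes, was lower, at 23.5, 29.4, 19.98 and 21.8 CPM in control libraries 1 to 4 and 14.1, 11.3, 11.4 and 4.04 CPM in deficient-labelled libraries 1 to 4 (log2 difference -1.21 ± 0.34 SE, adjusted p = 0.107).

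Among 18 tested upstream cytokines and transcription factors 13 had positive differences (52% of all genes) and 5 an unadjusted p under 0.05 (4 higher, 1 lower), a share near the 24.8% of all genes. Besides Ifng the higher ones included Irf7 (1.00 ± 0.41 SE) and Nfkbia (0.35 ± 0.14), and the lower one was Rela (-0.11 ± 0.05), a subunit of NF-kB. Of 7 tested enzymes that trim chemokines Dpp4 and Mmp2 (-0.44 ± 0.17 SE, adjusted p = 0.173) were the 2 at an unadjusted p under 0.05, both lower (11.8% of all genes).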

How the data were processed

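RNA from 8 uterine libraries, 4 labelled control and 4 labelled as PGR deficient in the myometrium, was measured as reads per gene. TRIzol was used for extraction, per the labels. The authors deposited 1 table of whole-number counts per gene symbol, with no normalization. Reads were handled with HISAT2 2.2.1 and HTSeq 0.10.0 on build mm10, per the submitters' processing notes; settings such as strand are not given in the sources read for this work. Columns were matched to sample titles, and 0 columns were left unused.

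The whole table was fitted. Genes were filtered with filterByExpr, which left 17629 of 31269, scaled with TMM, and tested with edgeR 4.0.16 (glmQLFit with legacy=TRUE and glmQLFTest, R 4.3.3), with no term besides group. Benjamini-Hochberg adjustment was over all genes and calls were made at 0.05. The SE of a log2 difference is its size over the square root of F. The test was tried on simulated counts. No library was a copy of another (chi-square over its degrees of freedom at least 44.3), and intervals cover counting and library spread only. Levels are not compared between genes, since no transcript lengths were used. Coordinates and overlaps come from a RefSeq gene table of GRCm38.p6, in which all 48 symbols were found. No sequences are shown.

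The genes, their roles, the pathway lists and the marker lists were chosen with earlier results of these data known. Per-library values are given for every gene of the set at 1 CPM or more in either group mean or with an unadjusted p under 0.05 (31 genes, some of which are counted but not reported here), and the rest by counts and ranges, some of them also by library; from each pathway list at most 5 genes are named. Alternatives were other scalings and filters, DESeq2 1.42.0, limma-voom (limma 3.58.1), the replicate number as a block, and leaving out libraries; a fit with legacy=FALSE and the count of called chemokine genes were added after seeing the data.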

Additional observations from a re-analysis of the deposited data

Results flagged for a closer look

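Among the 31 genes of the set examined by library, 62 groups of 4 libraries were examined for a library far from the others of its group. In these, 8 values stood out. Chance flags about 1 in 20 groups if values are normally distributed and groups independent. These genes share the same libraries, and the share flagged over all genes was not computed, so the 8 are a description. Deficient-labelled library 2 held 3 of them: the highest Ccl11 (141 CPM), the highest Ccr9 (5.49 CPM) and the lowest Cxcl14 (64.7 CPM). Deficient-labelled library 4 held the lowest Ccl8 (16.6 CPM), the highest Cxcr4 (23.5 CPM) and the highest Cxcr5 (1.86 CPM) of its group. Control library 2 held the highest Ccl12 (2.26 CPM) and the lowest Cxcl14 (126 CPM) of the controls.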

How the results depend on the processing

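Of 17629 genes edgeR called 0 at an adjusted p under 0.05; DESeq2 called 2488, limma-voom 2, edgeR with legacy=FALSE 3 and the fit with a replicate block 23, and leaving out single libraries gave 0 to 2 (2 without control library 2). On leaving out single libraries between 2896 and 5471 genes had an unadjusted p under 0.05, against 4372. Of the 37 tested chemokine and receptor genes, DESeq2 called 6 and the replicate block 1, where the main test called 0. Those at an unadjusted p under 0.05 were 13 in the main test. On leaving out single libraries they ran from 6 (without control library 4) to 15 (without deficient-labelled library 4), with 7 without deficient-labelled library 2. At these ends the share of the set was 16.2% and 40.5%, beside 16.2% and 30.7% of all genes. The count was 6 without deficient-labelled libraries 2 and 3, of which 5 were among the 13. Those with groups that did not overlap, 5 in the main analysis, ran from 4 to 11 on leaving out single libraries and were 10 without libraries 2 and 3, where fewer libraries have to lie apart; the same 5 genes stayed apart under all 4 scalings.

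Among the 37 tested genes signs turned in 8, each time on leaving out libraries, and the cause was not tested: Ccr1 to -0.14 without deficient-labelled library 2 and -0.28 without libraries 2 and 3 (up to 0.65 on leaving out another single library), Cxcl13 to -0.30 without deficient-labelled library 4 (up to 0.56), Cxcl16 to -0.091 and Cxcl17 to -0.63 without libraries 2 and 3, and Cxcl9 to -0.000700, -0.15 and -0.16 without control library 1, 2 or 4 and -0.04 without deficient-labelled library 4 (up to 1.12). Ccr4 turned to -0.32 without deficient-labelled library 2 and -0.23 without libraries 2 and 3, Ccr7 to -0.02 without control library 2 and -0.06 without deficient-labelled library 2, and Cxcr2 to 0.22 without control library 1. Correlations of same-numbered libraries across genes, as deviations from their group means, were 0.20, 0.24, -0.01 and -0.08, so the numbers were not taken as pairs; not every library correlated best with its own number. Counts near the filter limit what can be seen for the 11 untested genes.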

Other observations

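Mast cells and lymphatic vessels, which respectively release and transport chemokines, were not part of the comparisons above. Mast cell markers (7 in the table, 5 tested) had 4 negative differences, all at an unadjusted p under 0.05 (11.8% of all genes) and without overlap (8.66% of all genes). Apart from Kit, which other cells also express, the mast cell markers summed to 16.8, 9.97, 11.1 and 34.9 CPM in control libraries 1 to 4 and 4.53, 1.36, 5.32 and 4.73 CPM in deficient-labelled libraries 1 to 4. Kit itself measured 47.1, 52.1, 23.9 and 31.0 and 118, 33.5, 27.7 and 60.5 CPM. Lymphatic endothelial markers (6 of 6 tested) all had negative differences, 1 of them at an unadjusted p under 0.05 (11.8% of all genes), and summed to 335, 195, 197 and 218 CPM in the controls and 183, 150.0, 164 and 206 CPM in the other group. Ccl21, the ligand that lymphatic vessels present to Ccr7, could not be analysed, since no deposited symbol starts with Ccl21.

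In 25 of the 37 tested genes of the set the SD of log2 CPM was larger in the deficient-labelled group than in the controls, which is 67.6%, beside 71.4% of all genes tested.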
